A study of Mus musculus with 6 samples.

Results

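The genes described here are 10 genes of Leydig cells, the androgen-producing cells between the seminiferous tubules of the testis. All but Insl3, a peptide hormone gene, belong to steroid hormone production, and the group is called steroidogenesis genes below. The 10 genes are Star, Cyp11a1, Cyp17a1, Hsd3b1, Hsd3b6, Hsd17b3, Lhcgr, Insl3, Srd5a1 and Akr1c14. They were chosen by name, and all 10 were found among the 22274 genes of the deposited table. Symbol matching found 9, and Akr1c14 was found by its Ensembl identifier because the table lists it under the name Akr1c9. The libraries are of messenger RNA of whole mouse testes. All 6 carry the label day 9, with no starting event named. The 3 control libraries are labelled only as control, and whether those mice carried floxed alleles or Cre is not given in the sources used here. The 3 knockout libraries (cKO) come from mice in which floxed Dcaf2, the gene of a substrate receptor of the CRL4 ubiquitin ligase, was deleted with Stra8-Cre. That Cre is driven in spermatogonia, so Leydig cells are not the cells it targets. Nothing in the labels ties a library to its own animal. The p-values therefore cover only the variation seen between these libraries, some of which may be technical.

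Leydig cells make androgens from cholesterol in a fixed order of steps. Luteinizing hormone binds its receptor LHCGR and raises cAMP, STAR brings cholesterol into the mitochondrion, and CYP11A1 cuts it to pregnenolone. HSD3B enzymes, CYP17A1 and HSD17B3 carry the product on to testosterone, and SRD5A1 and AKR1C14 reduce androgens further in the immature testis. In the mouse, a fetal Leydig population is followed after birth by an adult population, and HSD3B6 and HSD17B3 are known as enzymes of adult Leydig cells.

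Libraries held 15407007 to 18372964 counts. The 10 genes took 0.0980%, 0.05% and 0.0489% of the counts in control libraries 1, 2 and 3, and 0.106%, 0.102% and 0.104% in knockout libraries 1, 2 and 3. Control library 1 thus lay with the knockouts in this share, away from the other 2 controls. It also stood apart by transcript length: at the length of Insl3, a short transcript, its log2 level lay 0.44 above the mean of the 6 libraries along the length trend over all genes, and at that of Lhcgr, a long transcript, it lay at -0.39. The targeted transcript, Dtl in current naming, was at 42.6 to 77.4 CPM (counts scaled to a fixed library total) across controls, against 41.7 to 51.5 CPM across knockouts, a difference that did not pass the test (log2 fold change -0.31, edgeR adjusted p = 0.281). Whole-gene counts also include transcripts that lack the deleted part, so this checks the labels only loosely.

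Of the 10 genes, 9 had enough counts to be tested, and 3 of them rose in the knockouts: Lhcgr 2-fold, Hsd17b3 1.75-fold and Akr1c14 1.36-fold. The other 6, Star, Cyp11a1, Cyp17a1, Hsd3b1, Insl3 and Srd5a1, did not pass, and 0 fell (edgeR's quasi-likelihood test, Benjamini-Hochberg adjusted p under 0.05 over all 14424 tested genes). At an unadjusted edgeR p under 0.05, 5 were higher, Cyp11a1 and Hsd3b1 besides the 3, and 0 lower. Of all 14424 tested genes, 2756 were higher and 2880 lower at that unadjusted threshold. With the adjusted p of edgeR, 11.1% of all tested genes were called higher and 13.9% lower, 25% in either direction. DESeq2 called 3 of the 9 higher and 0 lower, where 11.9% of all genes were called higher and 15.8% lower. With limma-voom 4 and 0 were called, Cyp17a1 the fourth, where 11.5% and 13.4% of all genes were. The median log2 fold change of the 9 genes was 0.56, against 0.03 over all tested genes. Among the marker lists described further below, the median was 0.43 for Sertoli cells, 0.40 for interstitial stroma and 0.33 for macrophages and leukocytes. It was 0.30 for endothelial cells, 0.07 for peritubular myoid cells, -0.21 for erythroid cells and -1.45 for pan-germ-cell genes. Without control library 1, 8 of the 9 were called higher (all but Srd5a1), where 16.4% of all genes were (19.7% lower). The median of the 9 was then 0.91. With the trend on transcript length removed from each library, a setting chosen after the data were seen, 5 were called higher, where 14.5% of all genes were: Cyp11a1, Hsd3b1, Insl3, Hsd17b3 and Akr1c14. In whole testes, more cells of a type, more RNA per cell and less RNA from other cell types cannot be told apart. CPM is a share of the library, so a gene can rise in it when others fall.

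**Figure D1:**
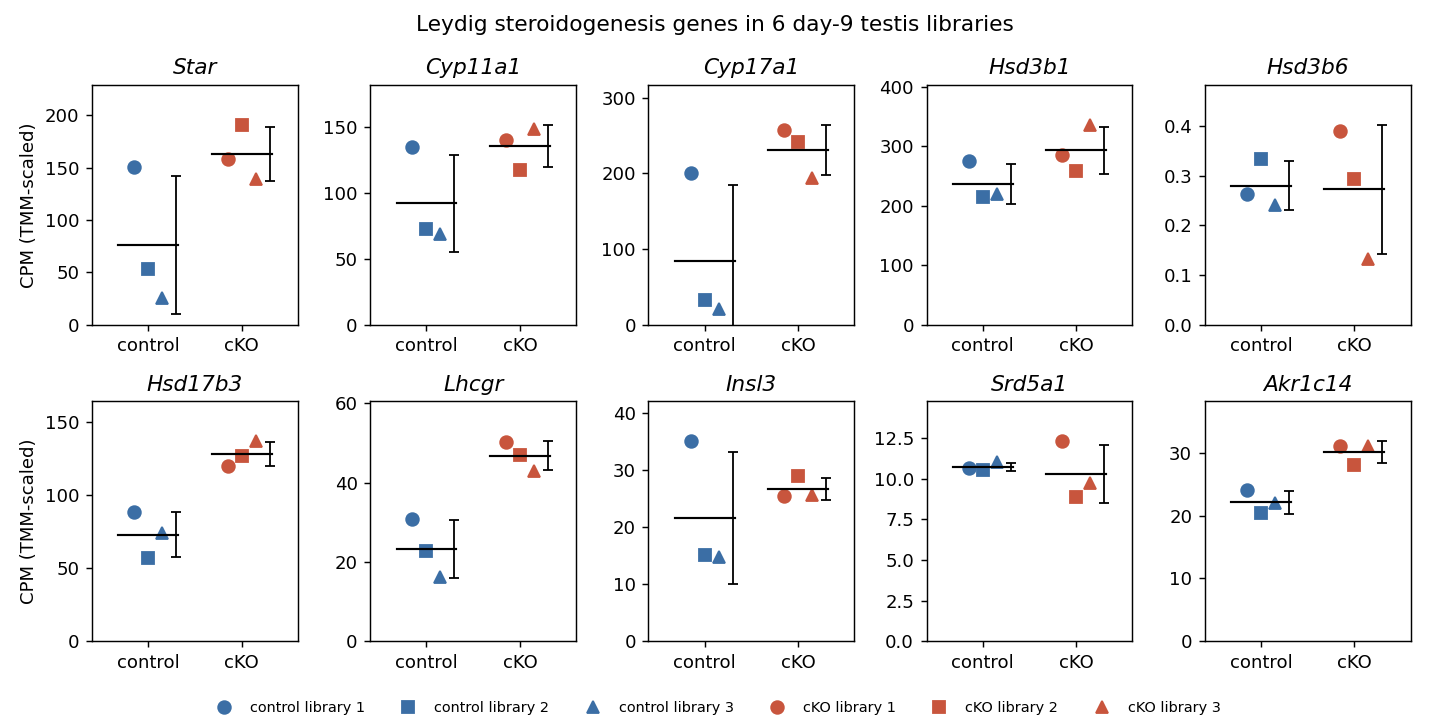
Level of each of the 10 genes in CPM (vertical axes from 0, scaled by TMM), by group. Points are libraries (circle 1, square 2, triangle 3), lines are means and bars are ± SD with n = 3; the lower end of the control bar of Cyp17a1 lies under 0 and is cut off. Control library 1 lies near the knockouts for Star, Cyp11a1 and Cyp17a1 and above them for Insl3.

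Lhcgr (ENSMUSG00000024107), the receptor through which luteinizing hormone drives Leydig cells, was at 30.9, 22.7 and 16.3 CPM for control libraries 1, 2 and 3, against 50.3, 47.1 and 43 CPM for knockout libraries 1, 2 and 3. Every knockout library lay above every control, where 22.5% of all tested genes do so. The log2 fold change was 1 (SE 0.199, 95% interval 0.55 to 1.45, edgeR adjusted p = 0.00846). It passed with any 1 library left out, between 0.80 and 1.24. Lhcgr has a long transcript, of 6549 bases as implied by the deposited counts and FPKM values (fragments per length of transcript and library size). With the length trend removed its log2 fold change was 0.71 and no longer passed (edgeR adjusted p = 0.0511).

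Insl3 (ENSMUSG00000079019) encodes the Leydig cell peptide hormone that guides testis descent. It measured 35.0, 15.1 and 14.7 CPM across the controls, against 25.5, 28.9 and 25.7 CPM across the knockouts, so the groups overlapped. Control library 1 held the highest level of all 6, and the other 2 controls the lowest. The log2 fold change was 0.30 (SE 0.301, 95% interval -0.38 to 0.98, edgeR adjusted p = 0.492). It became 0.82 without control library 1 (adjusted p = 0.000512), and 0.58 with the length trend removed (adjusted p = 0.036). With any other library left out it did not pass, and it was lowest at 0.09, without control library 3 (adjusted p = 0.868). Insl3 is the shortest transcript of the group, at 623 bases.

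Insl3 and Lhcgr are given here by the stretch from 250 to 51 bases before the gene start, because they encode the hormone and receptor of the group and both hold a motif, with Hsd17b3 and Akr1c14 beside them because those 2 also rose. Sequences are from RefSeq (GRCm38.p6), 5′ to 3′ on the strand of the gene. Capitals mark AGGTCA, the hexamer of nuclear receptors, and AAGGTC, the core of the site of NR5A1, a nuclear receptor that is a main regulator of steroidogenic genes. Both were searched on both strands and can overlap in AAGGTCA.
Insl3, chr8:71689002-71689201, plus strand: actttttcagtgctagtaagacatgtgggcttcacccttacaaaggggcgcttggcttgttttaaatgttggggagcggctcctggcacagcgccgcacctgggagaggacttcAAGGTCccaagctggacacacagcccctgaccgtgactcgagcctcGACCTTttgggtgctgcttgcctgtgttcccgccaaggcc
Lhcgr, chr17:88792065-88792264, minus strand: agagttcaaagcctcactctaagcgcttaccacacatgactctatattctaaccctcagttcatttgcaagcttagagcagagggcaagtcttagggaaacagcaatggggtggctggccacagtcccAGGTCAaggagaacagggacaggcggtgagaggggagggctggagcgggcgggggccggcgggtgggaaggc
Hsd17b3, chr13:64089252-64089451, minus strand: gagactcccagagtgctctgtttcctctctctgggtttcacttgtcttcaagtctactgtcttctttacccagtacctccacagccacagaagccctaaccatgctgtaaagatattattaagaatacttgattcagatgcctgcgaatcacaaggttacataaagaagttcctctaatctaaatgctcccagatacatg
Akr1c14, chr13:4059341-4059540, plus strand: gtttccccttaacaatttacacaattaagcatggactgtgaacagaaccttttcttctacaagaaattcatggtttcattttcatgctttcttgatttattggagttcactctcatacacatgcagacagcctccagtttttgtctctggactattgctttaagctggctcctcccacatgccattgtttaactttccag

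The promoter table held 9 windows of 300 bases, 250 before to 50 after a gene start, for 8 of the 10 genes, and none for Star or Cyp17a1. AAGGTC was found in the window of 1 gene, Insl3, with matches that begin 136 and 90 bases before the start, and in 12.3% of all 32851 windows. AGGTCA was found for Lhcgr, 122 bases before the start, and in 1 of the 2 Cyp11a1 windows, and in 16.3% of all windows. These 2 searches were added after the longer AAGGTCA had been found for 0 of the 8 genes (4.72% of all windows) and the cAMP element TGACGTCA for 0 of the 8 (1.79%). A GATA element (GATAA or GATAG with an A or T before it, on either strand) was found for 3 of the 8, Hsd3b1, Hsd3b6 and Cyp11a1, and in 29.8% of all windows. These matches are letters only and were not tested for binding.

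Star (ENSMUSG00000031574), the cholesterol transporter of the rate-limiting step, measured 150, 52.8 and 25.6 CPM across the controls, against 158, 191 and 139 CPM across the knockouts. Control library 1 lay inside the range of the knockouts, while the other 2 controls lay far under it. Its log2 fold change of 1.09 (SE 0.503, 95% interval -0.05 to 2.23) did not pass (edgeR adjusted p = 0.142). Without control library 1 it was 2.03 and passed (adjusted p = 0.000244). With any other library left out it did not pass, and it was lowest at 0.68, without control library 3 (adjusted p = 0.266). Star also stood apart in the transcript length implied by its counts and FPKM values, which was 2935, 2515 and 2076 bases in the controls and 2130, 2368 and 2045 bases in the knockouts. The longest was 1.44 times the shortest, a larger ratio than for 95.3% of 12872 genes. The GENCODE M21 annotation gives Star 2 transcripts, of 4046 and 633 bases. The mean FPKM of Star was 28.9 in controls and 72.6 in knockouts.

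Cyp11a1 (ENSMUSG00000032323), the side-chain cleavage enzyme that makes pregnenolone, measured 135, 72.5 and 69.0 CPM across the controls, against 141, 118 and 149 CPM across the knockouts. The groups overlapped through control library 1 alone. The log2 fold change was 0.56 (SE 0.237, 95% interval 0.02 to 1.09, edgeR adjusted p = 0.115). The call was made without control library 1, at 0.91 (adjusted p = 0.000164), and with the length trend removed, at 0.62 (adjusted p = 0.0315). With any other library left out Cyp11a1 did not pass, and it was lowest at 0.39, without control library 3 (adjusted p = 0.318).

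Hsd3b1 (ENSMUSG00000027871), which turns pregnenolone into progesterone, had the highest FPKM of the 10 genes in each of the 6 libraries. It measured 276, 214 and 220 CPM across the controls, against 285, 258 and 336 CPM across the knockouts. These groups overlapped, and its log2 fold change of 0.31 (SE 0.134, 95% interval 0.01 to 0.61) did not pass (edgeR adjusted p = 0.121). It was 0.41 without control library 1 (adjusted p = 0.0134) and 0.38 with the length trend removed (adjusted p = 0.0138). With any other library left out Hsd3b1 did not pass, and it was lowest at 0.20, without knockout library 3 (adjusted p = 0.37). Hsd3b6 (ENSMUSG00000027869), its paralog of the adult Leydig cell, gave counts of 5, 6 and 4 among controls and of 6, 5 and 2 among knockouts, too few to be tested. Per length, Hsd3b1 was at 625 to 2263 times the FPKM of Hsd3b6, a ratio that rests on those few counts. The 2 genes are close paralogs, and how the authors' counting shared reads between them is not given in the sources used here.

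Cyp17a1 (ENSMUSG00000003555), which makes androgens from progesterone, varied most. It measured 200, 32.9 and 20.2 CPM across the controls, against 258, 241 and 193 CPM across the knockouts. The highest control was 9.90 times the lowest, and the highest knockout 1.33 times the lowest. Its log2 fold change of 1.45 (SE 0.693, 95% interval -0.12 to 3.01) did not pass (edgeR adjusted p = 0.153). Without control library 1 it was 3.09 (adjusted p = 4.77e-06), and with limma-voom on all 6 libraries it passed narrowly at 2.15 (adjusted p = 0.0485). With any other library left out it did not pass, and it was lowest at 0.99, without control library 3 (edgeR adjusted p = 0.303).

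Hsd17b3 (ENSMUSG00000033122), which makes testosterone from androstenedione, measured 88.3, 57.1 and 73.9 CPM across the controls, against 120, 127 and 137 CPM across the knockouts. The groups did not overlap, and the log2 fold change was 0.81 (SE 0.150, 95% interval 0.47 to 1.15, edgeR adjusted p = 0.00649). It passed with any 1 library left out, between 0.65 and 0.94, and with the length trend removed, at 0.98 (adjusted p = 0.000109). With libraries scaled to Sertoli cell genes it was 0.48 and did not pass (edgeR adjusted p = 0.0688). In that setting 0.201% of all tested genes were called higher and 25.3% lower. Group means of Hsd17b3 were 73.1 ± 15.6 and 128 ± 8.34 CPM (control and knockout, SD, n = 3 each).

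Of the 2 androgen-reducing enzymes, 1 rose. Akr1c14 (ENSMUSG00000033715), which reduces dihydrotestosterone to androstanediol, measured 24.1, 20.3 and 22 CPM across the controls, against 31.1, 28.1 and 31.1 CPM across the knockouts. Every knockout lay above every control, and the log2 fold change was 0.44 (SE 0.109, 95% interval 0.19 to 0.69, edgeR adjusted p = 0.0197). Leaving out control library 3 ended the call (0.44, adjusted p = 0.0712) as did leaving out knockout library 1, 2 or 3 (0.42, 0.49 and 0.42, adjusted p = 0.0824, 0.0554 and 0.077). With libraries scaled to Sertoli cell genes, Akr1c14 was at 0.10 on the log2 scale (edgeR adjusted p = 0.699). Srd5a1 (ENSMUSG00000021594), which makes dihydrotestosterone from testosterone, measured 10.7, 10.5 and 11 CPM across the controls, against 12.3, 8.87 and 9.76 CPM across the knockouts. Its controls lay inside the range of the knockouts. Its log2 fold change was -0.06 (SE 0.158, 95% interval -0.42 to 0.30, edgeR adjusted p = 0.81).

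**Figure D2:**
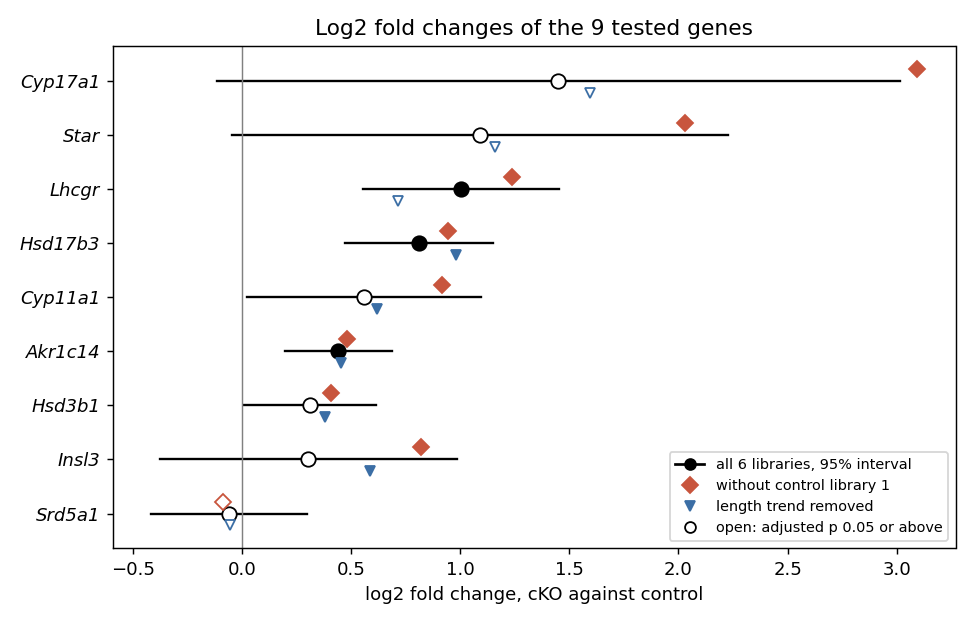
Log2 fold change of knockout against control (horizontal axis) for the 9 tested genes, with the 95% interval from all 6 libraries (black), the value without control library 1 (red diamonds) and the value with the length trend removed (blue triangles). Filled symbols have an adjusted p under 0.05. Cyp17a1 moves from 1.45 to 3.09 and Star from 1.09 to 2.03 without control library 1, while Akr1c14 and Srd5a1 stay near their values.

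The controls spread widely for some of the genes and not for others. The SD of log2 CPM over the 3 controls was 1.74 for Cyp17a1, more than for 99.8% of tested genes, and 1.28 for Star, more than for 99.6%. Insl3 followed at 0.71 (97.3%), Cyp11a1 at 0.54 (93.6%) and Lhcgr at 0.46 (90.1%). Hsd3b1 was near the middle of all genes, at 0.20 (50.2%), and Akr1c14 and Srd5a1 were at 0.12 and 0.03 (25.7% and 2.26%). Over the 3 knockouts the same SD ran from 0.08 for Akr1c14 to 0.24 for Srd5a1. The median of the 9 genes was 0.46 in controls and 0.18 in knockouts, against 0.20 and 0.10 over all tested genes. Thus the genes that differed most in mean between the groups, Cyp17a1 and Star, were also the most variable among controls.

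Levels of different genes were compared per length, as FPKM within a library. Cyp17a1 was at 1.72, 0.504 and 0.340 times the FPKM of Cyp11a1 in control libraries 1, 2 and 3, and at 2.12, 2.36 and 1.52 times in the knockouts. Control library 1 thus lay with the knockouts in this ratio also, which does not depend on how libraries are scaled. Cyp17a1 over Hsd3b1 was 0.701, 0.146 and 0.0912 across controls, against 0.887, 0.927 and 0.573 across knockouts. Hsd17b3 over Hsd3b1 behaved otherwise, at 0.490, 0.426 and 0.535 across controls, against 0.684, 0.811 and 0.660 across knockouts, with no overlap. Akr1c14 over Srd5a1 was 2.28, 1.99 and 2.01 across controls, against 2.58, 3.28 and 3.24 across knockouts, also with no overlap. These ratios were chosen after the values were seen and were not tested.

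In mean FPKM the order in the knockouts was Hsd3b1 at 158, Cyp17a1 at 123, Hsd17b3 at 113, Star at 72.6, Cyp11a1 at 62.5, Insl3 at 41.9, Akr1c14 at 11.4, Lhcgr at 7, Srd5a1 at 3.81 and Hsd3b6 at 0.157. In the controls Hsd17b3, at 65.5, stood above Cyp17a1, at 47.1, and Cyp11a1, at 44.5. The ranges of Cyp17a1 and Hsd17b3 overlapped in both groups, as did those of Star and Cyp11a1. Lhcgr and Srd5a1 overlapped in the controls, where Lhcgr was at 4.89, 3.45 and 2.56 FPKM and Srd5a1 at 4.16, 4 and 4.3 FPKM.

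Around the 10 genes, 72 further genes of steroid metabolism and its control were listed, of which 60 were tested. In the knockouts 14 were called higher and 1 lower, where 11.1% and 13.9% of all tested genes were. Without control library 1 these counts were 26 and 2, and with control library 3 or 1 of the knockouts left out they were 5 to 7 and 0. With the length trend removed they were 22 and 2, where 14.5% of all genes were called higher and 19.9% lower. Scaled to Sertoli cell genes they were 2 and 2, where 0.201% of all genes were called higher and 25.3% lower. Of the pathway genes named below as higher, only Hsd17b1 and Cyp11b1 passed there. Named by the smallest p in each list are 14 genes, Atad3a among them, and 3 of these (Hsd17b1, Prlr and Insr) kept the call with each of the 6 libraries left out in turn. Without control libraries 1, 2 and 3 in turn, 16.4%, 13.7% and 4.62% of all genes were called higher and 19.7%, 15.7% and 7.63% lower. Without knockout libraries 1, 2 and 3, 3.24%, 3.1% and 4.57% were higher and 6.59%, 6.19% and 8.56% lower.

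Of 16 tested genes for other steroid enzymes, 3 rose and 0 fell by edgeR, DESeq2 and limma-voom alike (5 and 0 at an unadjusted edgeR p under 0.05). For all tested genes edgeR called 11.1% higher and 13.9% lower. Hsd17b1, which activates estrone and is also a Sertoli cell gene in the immature testis, measured 57.0, 28.8 and 46.5 CPM across the controls, against 91.1, 96.2 and 105 CPM across the knockouts (a log2 difference of 1.14, SE 0.210, edgeR adjusted p = 0.0062). Cyp11b1, the adrenal enzyme of corticosterone synthesis, rose from 0.809 ± 0.152 to 2.87 ± 1.52 CPM (mean ± SD, n = 3 each, log2 fold change 1.83, edgeR adjusted p = 0.0203). Cyp11b1 counts were low, at 12, 16 and 15 in the controls against 50, 71 and 18 in the knockouts. Knockout library 3, at 1.2 CPM, lay little above the highest control, at 0.902 CPM. Its call was lost without control library 3, knockout library 1 or knockout library 2 (edgeR adjusted p = 0.0657, 0.0764 and 0.0923). Of the other adrenal cortex markers, Akr1b7, an aldo-keto reductase, measured 5.65, 4.52 and 6.25 CPM across the controls, against 10.02, 11.1 and 10.8 CPM across the knockouts, and rose by 0.96 on the log2 scale (edgeR adjusted p = 0.00557). Cyp11b2 had no count in any library, Mc2r reached at most 0.528 CPM, and Cyp21a1 was at 0.902 to 3.65 CPM. Hsd17b11 rose by 0.37 on the log2 scale (edgeR adjusted p = 0.0444), a call lost in 5 of the 6 settings that leave out a library.

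Among 5 electron carriers, which pass electrons to the steroidogenic P450 enzymes, 1 rose. Fdxr, the reductase that feeds CYP11A1 through ferredoxin, measured 137, 82.1 and 89.9 CPM across the controls, against 138, 161 and 160 CPM across the knockouts. Its log2 fold change of 0.57 passed narrowly (edgeR adjusted p = 0.04996) and was lost without any 1 library other than control library 1. Fdx1, the ferredoxin itself, measured 38.7, 19.0 and 14.1 CPM across the controls, against 35.4, 37.5 and 28.9 CPM across the knockouts and did not pass (edgeR adjusted p = 0.267). Fdx1 was named after its values were seen. Of 14 genes of cholesterol supply, 0 were called higher with edgeR, DESeq2 or limma-voom (3 at an unadjusted edgeR p under 0.05) and 1 lower. Beside both lists, edgeR called 11.1% of all tested genes higher and 13.9% lower. Atad3a, which encodes a mitochondrial membrane ATPase, fell by 0.33 on the log2 scale, from 58.8 ± 2.63 to 46.7 ± 1.93 CPM (edgeR adjusted p = 0.0257). Leaving out control library 3 ended that call (edgeR adjusted p = 0.0941), as did leaving out any of the knockout libraries (0.0839 to 0.106).

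Of 13 tested genes of hormone signalling, 6 rose and 0 fell, with 7 and 0 by DESeq2 and by limma-voom (10 and 0 at an unadjusted edgeR p under 0.05). The edgeR shares over all tested genes were 11.1% higher and 13.9% lower. Prlr, the prolactin receptor, measured 26.8, 38.4 and 35.4 CPM across the controls, against 74.2, 58.8 and 62.7 CPM across the knockouts (a log2 difference of 0.96, SE 0.148, edgeR adjusted p = 0.00318). Here control library 1 was the lowest of the controls, unlike for Star and Cyp17a1. Scaled to Sertoli cell genes, Prlr was at 0.58 and did not pass (edgeR adjusted p = 0.101). Insr, the insulin receptor, rose by 0.67 (edgeR adjusted p = 0.00576), and Pde4b, a cAMP phosphodiesterase, by 0.56 (adjusted p = 0.0111). Esr1, an estrogen receptor, rose by 0.44 and Prkar2b, a regulatory subunit of protein kinase A, by 0.47 (edgeR adjusted p = 0.0313 and 0.0318), both calls ended by leaving out control library 3 or any of the knockout libraries. The Esr1 call was also lost with the length trend removed, where its log2 fold change was 0.19 (adjusted p = 0.394). In that setting Insr was at 0.35 and Prlr at 0.64, and both passed (edgeR adjusted p = 0.0311 and 0.00149). Scaled to Sertoli cell genes, Insr was at 0.31, Pde4b at 0.21, Esr1 at 0.10 and Prkar2b at 0.14, and none of these 4 passed (edgeR adjusted p 0.315 to 0.656).

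Of 12 transcription factors known in Leydig cells, 4 rose and 0 fell, the counts that DESeq2 and limma-voom also gave (7 and 0 at an unadjusted edgeR p under 0.05). The edgeR shares over all tested genes were 11.1% higher and 13.9% lower. Gata4, which Sertoli cells also express, rose from 332 ± 28.8 to 453 ± 14.0 CPM (log2 fold change 0.45, edgeR adjusted p = 0.012). Gata6 rose by 0.46, Lhx9 by 0.57 and Nr2f2, a factor of interstitial progenitor cells, by 0.40 (edgeR adjusted p = 0.00924, 0.0168 and 0.0183). Each of these 4 calls was lost without 1 or more of the libraries. Scaled to Sertoli cell genes, none of the 4 passed: Gata4 was at 0.10, Gata6 at 0.11, Lhx9 at 0.22 and Nr2f2 at 0.04 on the log2 scale (edgeR adjusted p 0.46 to 0.88). Nr5a1, the regulator of steroidogenic genes named above, measured 261, 182 and 203 CPM across the controls, against 267, 271 and 273 CPM across the knockouts and did not pass (log2 fold change 0.33, edgeR adjusted p = 0.0979). Nr5a1 was named after its values were seen.

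**Figure D3:**
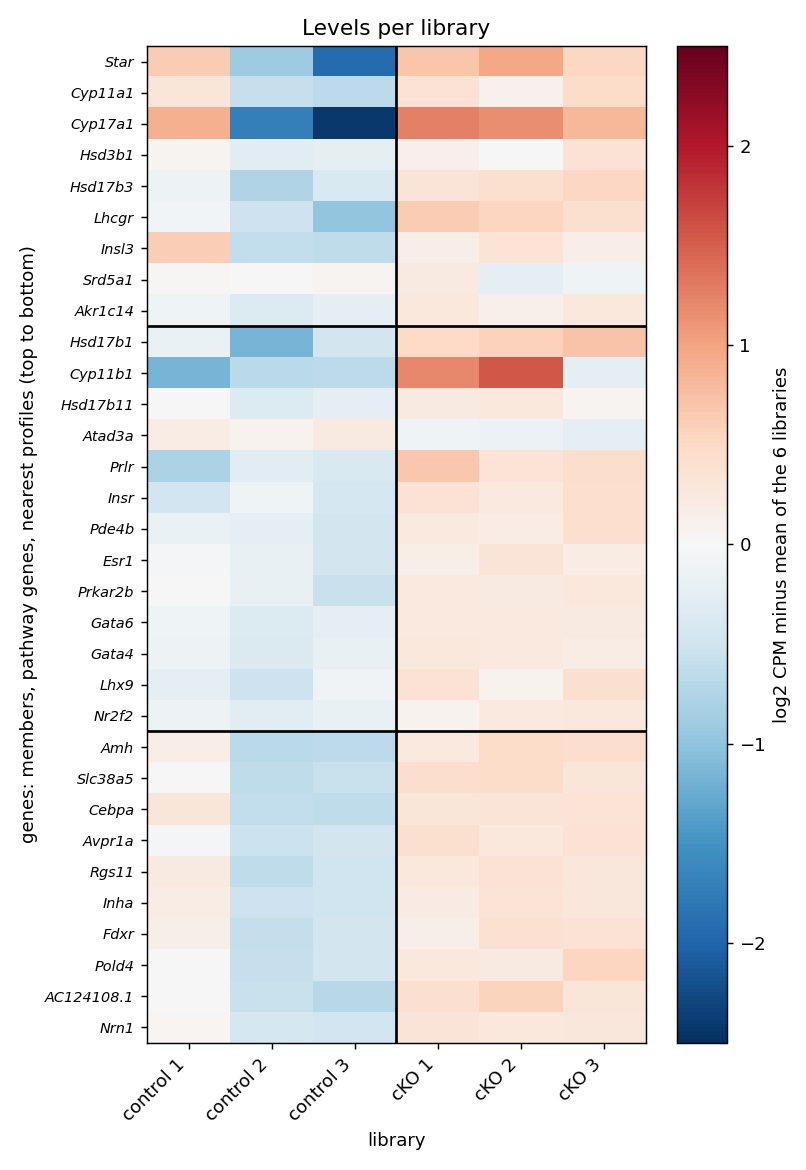
Log2 CPM minus the gene's mean over the 6 libraries (colour, red higher and blue lower) for the 9 tested steroidogenesis genes (top block), the named pathway genes other than Fdxr (middle) and the 10 genes of nearest profile (bottom), with libraries in columns. Control library 1 is above the mean for Star, Cyp17a1 and Insl3, where control libraries 2 and 3 are below it, and Prlr is lowest in control library 1.

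The genes whose profile over the 6 libraries lay nearest to the median profile of the 9 genes were Amh, Slc38a5, Cebpa, Avpr1a, Rgs11, Inha, Fdxr, Pold4, AC124108.1 and Nrn1. Likeness was the root mean square difference of centred log2 CPM, which ran from 0.0828 for Amh to 0.112 for Nrn1, against a median of 0.463 over all tested genes. Among the 9 genes themselves it ran from 0.133 for Cyp11a1 to 1.07 for Cyp17a1, so that the 9 genes did not share 1 profile. Amh, the anti-Müllerian hormone gene of Sertoli cells, measured 382, 214 and 217 CPM across the controls, against 402, 469 and 459 CPM across the knockouts. Inha, the inhibin alpha subunit, was at 610, 373 and 379 CPM and at 612, 674 and 652 CPM. Both had control library 1 above the other controls, as Cyp11a1 had.

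Markers of some other cell types differed between the groups, while the summed erythroid levels overlapped and few peritubular myoid genes were called. Beside the counts below, edgeR called 11.1% of all tested genes higher and 13.9% lower. The summed level of 19 pan-germ-cell genes was 1820, 2584 and 2484 CPM for controls, against 799, 730 and 911 CPM in the knockouts, and all 19 fell, including Ddx4 and Dazl. Control library 1 had the lowest germ-cell level of the controls. Scaled to these germ-cell genes instead, all 9 steroidogenesis genes were called higher, as were 92.7% of all genes, with a median of 1.95, where the median of all genes was 1.5. The 30 Sertoli cell genes summed to 8643, 6500 and 6244 CPM for controls, against 8970, 9499 and 8473 CPM in the knockouts, with 12 higher and 1 lower. Scaled to the Sertoli genes, 1 of the 9 was called higher, where 0.201% of all genes were, Lhcgr at 0.69 (edgeR adjusted p = 0.0144). In that setting 0 of the 9 were called lower, where 25.3% of all genes were. The median of the 9 was 0.27, where that of all genes was -0.33. The Sertoli list shares genes with the lists above, Hsd17b1, Gata4 and Nr5a1 among them.

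Interstitial stroma genes summed to 7768 to 9262 CPM in controls and 11753 to 12213 CPM in knockouts, with 8 of 15 higher and 0 lower, Pdgfra among them. Most of this sum is collagen: Col1a1, Col1a2 and Col3a1 were at 1781, 2654 and 2922 CPM in control library 1. The 7 genes not called include Tcf21, Mfap5 and Nes, at log2 fold changes of 0.09, 0.01 and -0.29. Endothelial genes summed to 301 to 338 and 411 to 438 CPM, with 5 of 12 higher. Macrophage and leukocyte genes summed to 138 to 187 and 192 to 248 CPM, with 2 of 16 higher, and peritubular myoid genes to 1953 to 1998 and 2033 to 2069 CPM, with 1 of 12 higher. Of all tested genes 11.1% were called higher and 13.9% lower, and the macrophage and myoid counts are near the first share. Erythroid genes summed to 659, 271 and 166 CPM for controls, against 435, 254 and 228 CPM in the knockouts, and 0 of 5 were called by edgeR, DESeq2 or limma-voom (0 at an unadjusted edgeR p under 0.05). Of other Leydig cell markers, 1 of 5 tested rose (Prlr, also counted under hormone signalling). Vcam1 did not pass, at 68.0, 77.1 and 61.2 CPM across the controls, against 88.9, 86.5 and 78.2 CPM across the knockouts (edgeR adjusted p = 0.0764). Nor did Ptgds, Fabp3 and Hsd11b1, at 0.45, 0.04 and 0.06 on the log2 scale (edgeR adjusted p 0.327 to 0.935). Of 3 tested markers of fetal Leydig cells 0 passed with edgeR, DESeq2 or limma-voom, and 2 had an unadjusted edgeR p under 0.05. Thbs2 measured 95.7, 121 and 134 CPM across the controls, against 150, 140 and 161 CPM across the knockouts, with control library 1 lowest. Ren1 measured 43.7, 23.8 and 29.3 CPM across the controls, against 47.2, 37.2 and 49.9 CPM across the knockouts, with control library 1 the highest control and inside the range of the knockouts. Crhr1 was lower, at 0.721 to 1.12 CPM in controls and 1.47 to 2.06 CPM in knockouts. Of 3 tested adrenal cortex markers 2 rose (Cyp11b1 and Akr1b7), of 8 rete testis and duct genes 1 fell, and of 3 adipocyte genes 1 rose. The part of these cell types, and of transcript length, in the differences of the steroidogenesis genes was not tested beyond the settings given here.

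**Figure D4:**
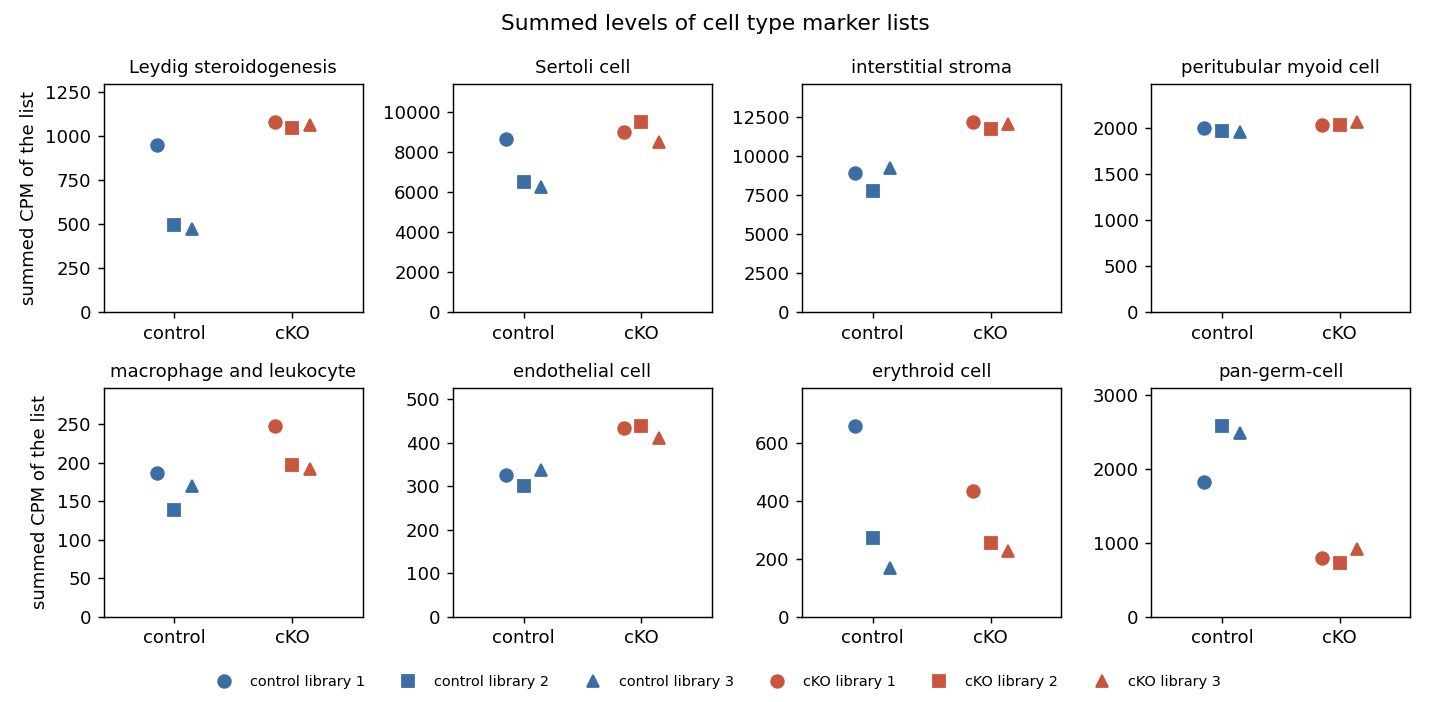
Summed CPM of each marker list (vertical axes from 0) by group, with libraries as points (circle 1, square 2, triangle 3). Steroidogenesis and Sertoli lists have control library 1 near the knockouts, the pan-germ-cell list has it as the lowest control, and the peritubular myoid list is at 1953 to 2069 CPM in all 6 libraries. Most of the interstitial stroma sum comes from Col1a1, Col1a2 and Col3a1.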

How the data were processed

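The authors deposited 1 table that pairs counts with FPKM for each gene. StringTie 1.3.1 and RSEM stand, with no role, per the submitters' processing notes. Aligner, build and strand setting: not given in the sources used here. The deposited counts are whole numbers and were treated here as estimated counts, perhaps rounded by the authors: in each library, 3 to 21 genes with an FPKM above 0 were listed with 0 counts. The deposited FPKM values served for levels per length and implied lengths (count over FPKM and library total), with no test. Symbols came from the reference gene table by Ensembl identifier (22219 of 22274 matched).

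Genes passing filterByExpr of edgeR 4.0.16 (minimum count 10) were scaled by TMM and tested with glmQLFit and glmQLFTest (R 4.3.3, no covariates, Benjamini-Hochberg, threshold 0.05). Genes left out held 0.063% of counts. Depth was 15407007 to 18372964 counts per library. The SE is the log2 fold change over the root of F. The procedure was tested on simulated data with the same dispersion for every gene. These data held no length trend and no library that stood apart, so the test does not cover such features. DESeq2 1.42.0, limma-voom (limma 3.58.1), RLE, upper-quartile, total-count, germ-cell and Sertoli scaling, dropping the filter, a higher one (at least 3 libraries at 1 CPM), the replicate number as a block and each library left out were tried, and a lowess (span 0.3) on implied length (genes with counts of at least 20) was added after seeing the data.

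The 10 genes and all lists were chosen with earlier results of these data known. Named pathway genes were, per list, up to 5 past the threshold by smallest p. Nearest profiles were the 10 genes with a mean log2 CPM (prior count 2) of at least 1 nearest to the median profile.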

Additional observations from a re-analysis of the deposited data

How the results depend on the processing

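No setting called any of the 9 tested genes lower. The count of 3 called higher and the median of 0.56 over the 9 changed little with the other tools (DESeq2, limma-voom), the other filters, or RLE, upper-quartile and total-count scaling, where 3 or 4 were called. In these settings 7.69% to 11.9% of all genes were called higher. Germ-cell scaling gave 9 called and a median of 1.95, with 60 pathway genes higher and 0 lower. With that scaling 92.7% of all genes were called higher, and the median of all genes was 1.5. It turned Srd5a1 to 1.41 and Atad3a to 1.14. Sertoli scaling gave 1 called, a median of 0.27, and 2 pathway genes higher and 2 lower, and turned Hsd3b1 to -0.0198. In that setting 0.201% of all genes were called higher and 25.3% lower. Total-count scaling moved the split of all calls from 44.3% to 31.4% higher. Removing the length trend gave 5 called, and 22 pathway genes higher and 2 lower. With the trend removed, 14.5% of all genes were called higher and 19.9% lower. With each library left out in turn, 2 to 8 of the 9 genes were called, with a median of 0.41 to 0.91. Of the pathway genes, 5 to 26 were higher and 0 to 2 lower. Over all genes, 3.1% to 16.4% were called higher and 6.19% to 19.7% lower. The highest values were without control library 1. Srd5a1 ran from -0.201 to 0.0414, turning without knockout library 2.

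With the replicate number as a block, 6 of the 9 were called (Star, Cyp11a1 and Cyp17a1 besides the 3), where 8.65% of all genes were called higher and 10.9% lower, and 0 pathway genes were lower. The numbers do not show that libraries are paired: same-numbered libraries had correlations of their deviations of -0.07, -0.08 and 0.07. Depth limits Hsd3b6, at 2 to 6 counts, which was not tested.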
